A study of Mus musculus with 12 samples.

Results

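The transcripts of 8 chemokine receptor genes, Ccr2, Ccr4, Ccr6, Ccr7, Ccr9, Cxcr3, Cxcr4 and Cxcr6, were followed across mouse T cell samples that the labels call iNKT17, ROR- and gamma-delta 17 cells. The genes were chosen by name from the platform's annotation, keeping probe sets that carry the symbol of exactly 1 of them; each gene had 1 such probe set. They are 8 of the 22180 genes named on the array and 8 of the 16667 that were tested, and all 8 passed the filter on dim values. The lowest value that any of them reached on any array was a log2 value of 3.93, above the dim level of 3.45 that the filter used.

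RNA from 12 samples was hybridised to 12 Affymetrix whole-transcript arrays. BALB/c mice (written BALBC in the labels) gave 3 samples of ROR- cells and 3 of iNKT17 cells, and B6 mice gave 2 of ROR- cells, 2 of iNKT17 cells and 2 of gamma-delta 17 cells. The labels give no age, treatment or altered allele, no organ, no sorting markers and no antigen receptor for the ROR- cells, and the protocol names frozen tissue as the starting material. Whether the replicates of a group are different mice is not given, so a p-value here reflects how much these arrays vary and no more, and that variation may be technical. The stated purpose was to compare iNKT cells of B6 and BALB/c mice.

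Invariant natural killer T (iNKT) cells are T cells that recognise lipids bound to CD1d. The iNKT17 subset, like gamma-delta 17 cells, makes interleukin 17. Chemokine receptors are membrane proteins that couple to inhibitory G proteins and steer a cell towards tissues that release the matching chemokine. The receptors that a T cell carries therefore help to set where it can go: CCR7 leads to lymph nodes, CCR9 to the thymus and small intestine, CCR4 to skin and lung, CXCR4 to bone marrow and other sources of CXCL12, and CCR6, CXCR3, CXCR6 and CCR2 to inflamed or barrier tissues and the liver.

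The promoters of Ccr6 and Cxcr3, the receptors whose levels spanned the groups most, and of Ccr9, whose levels set iNKT17 cells apart from the rest, are shown because factors that define these cells bind short motifs. RefSeq (build GRCm38.p6) gave a window of 250 bases before the transcript start for 7 of the 8 genes, 8 windows in all, with 2 starts for Ccr6. Capitals mark a match, on either strand, to AGGTCA (the half-site of many nuclear receptors), GGTGTG (the core of the T-box motif) or CACCC (the core bound by KLF proteins).
Ccr6, first start, chr17:8235793-8236042, plus strand: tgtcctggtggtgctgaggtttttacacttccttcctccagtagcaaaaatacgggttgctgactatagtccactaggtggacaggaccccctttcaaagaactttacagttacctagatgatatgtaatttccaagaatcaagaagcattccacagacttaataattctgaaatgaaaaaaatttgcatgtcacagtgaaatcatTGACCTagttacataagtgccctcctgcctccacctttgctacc
Ccr6, second start, chr17:8242276-8242525, plus strand: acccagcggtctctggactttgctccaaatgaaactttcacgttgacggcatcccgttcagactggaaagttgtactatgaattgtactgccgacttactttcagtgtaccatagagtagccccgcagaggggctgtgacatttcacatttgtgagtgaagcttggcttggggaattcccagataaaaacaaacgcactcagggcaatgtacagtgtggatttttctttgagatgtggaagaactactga
Cxcr3, chrX:101734148-101734397, minus strand: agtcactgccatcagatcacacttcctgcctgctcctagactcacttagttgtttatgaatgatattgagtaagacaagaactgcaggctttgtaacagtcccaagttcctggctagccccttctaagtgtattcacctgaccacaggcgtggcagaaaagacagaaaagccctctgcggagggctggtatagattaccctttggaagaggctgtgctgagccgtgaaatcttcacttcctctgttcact
Ccr9, chr9:123766961-123767210, plus strand: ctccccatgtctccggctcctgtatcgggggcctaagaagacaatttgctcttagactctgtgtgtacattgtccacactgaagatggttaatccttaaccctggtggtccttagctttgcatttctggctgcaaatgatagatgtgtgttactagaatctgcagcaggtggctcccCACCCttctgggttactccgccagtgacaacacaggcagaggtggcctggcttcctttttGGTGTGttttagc
The capitals in the first Ccr6 window are AGGTCA on the other strand, from 44 to 39 bases before the start. That motif was in 1 of the 8 windows of the receptors and in 14.0% of the 32851 windows of this length. In the Ccr9 window the capitals are CACCC, from 73 to 69 bases before the start, and GGTGTG, from 13 to 8. GGTGTG was in 1 of the 8 windows against 16.3% of all windows, and CACCC in 3 of the 8 (Ccr4, Ccr9 and Cxcr4) against 52.0%. The Cxcr3 window and the second Ccr6 window held none of the 3 motifs. A match describes letters only.

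The labels were checked against identity genes. Cd3e, Cd3d and Cd3g, which encode parts of the T cell receptor complex, had group means from 10.72 to 11.65 in all 5 groups. Il23r, the interleukin 23 receptor of type 17 cells, lay between 9.53 and 10.29 on the 7 arrays of type 17 cells and between 2.93 and 3.67 on 4 of the 5 ROR- arrays. The fifth, BALB/c ROR- replicate 2, read 7.003 for Il23r and 7.43 for Blk, which was 5.18 to 5.36 on the other ROR- arrays. Il17a, the cytokine gene itself, read 6.01, 5.66 and 4.33 in BALB/c iNKT17 cells, 5.54 and 4.93 in B6 iNKT17 cells, 8.24 and 8.98 in gamma-delta 17 cells and 3.62 to 4.41 on the ROR- arrays. The lowest iNKT17 value thus lay within the range of the ROR- arrays. Il17a was higher in iNKT17 than in ROR- cells by 1.43 ± 0.30 in the mean of both strains (limma, adjusted p = 0.00794), and lower than in gamma-delta 17 cells of B6 (log2 difference -3.38; limma, adjusted p = 0.0180). Cd163l1, a scavenger receptor of gamma-delta 17 cells, read 9.48 and 10.99 in those cells, 6.41 to 7.06 in iNKT17 cells and 5.33 to 6.01 in ROR- cells. B6 gamma-delta 17 replicate 1 read 9.30 for S100a8, a neutrophil gene at 2.14 to 2.44 on the other 11 arrays, and its Cd8a value was 8.76 against 5.47 on replicate 2. Over the 6 neutrophil markers that array averaged 6.28 against 3.41 on replicate 2, and over the 7 markers of immature thymocytes 5.43 against 3.89. Of these 7, Cd8a, Cd8b1 (8.24 against 4.30) and Dntt (5.52 against 3.46) differed most. Rag2 (2.94 against 2.93) and Ptcra (4.94 against 4.72) were close. Cd8a also read 6.74 and 6.73 in B6 iNKT17 cells. The receptor count in the mean of both strains is given with and without BALB/c ROR- replicate 2 and B6 gamma-delta 17 replicate 1. S100a8 and the thymocyte markers named here were picked after their values were seen. Markers of natural killer (NK) cells also moved with the groups: the 5 of the list averaged 6.23 to 6.54 on B6 ROR- arrays, 5.39 to 5.71 on BALB/c ROR- arrays, 4.57 to 5.33 on gamma-delta 17 arrays and 4.14 to 4.47 on iNKT17 arrays. Their part in the receptor differences was not tested.

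In the mean of both strains, iNKT17 cells carried more Ccr6 and slightly more Cxcr6 transcript than ROR- cells. They carried less Cxcr3, Cxcr4, Ccr7, Ccr4 and Ccr9. Ccr2 did not pass the test. Within single strains, Cxcr6 and Cxcr4 did not pass in B6, and Ccr4 did not pass in BALB/c. With limma's moderated test and Benjamini-Hochberg adjustment, 7 of the 8 receptors passed an adjusted p of 0.05 in the mean of both strains, 2 higher and 5 lower, where 12.3% of all tested genes passed (6.49% higher and 5.81% lower). The median difference of the 8 was -1.07 on the log2 scale, and that of all tested genes was 0.00. The same 7 receptors passed without BALB/c ROR- replicate 2 and without B6 gamma-delta 17 replicate 1. In such bulk samples, fewer cells that carry a transcript and less of it in each cell cannot be told apart.

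**Figure D1:**
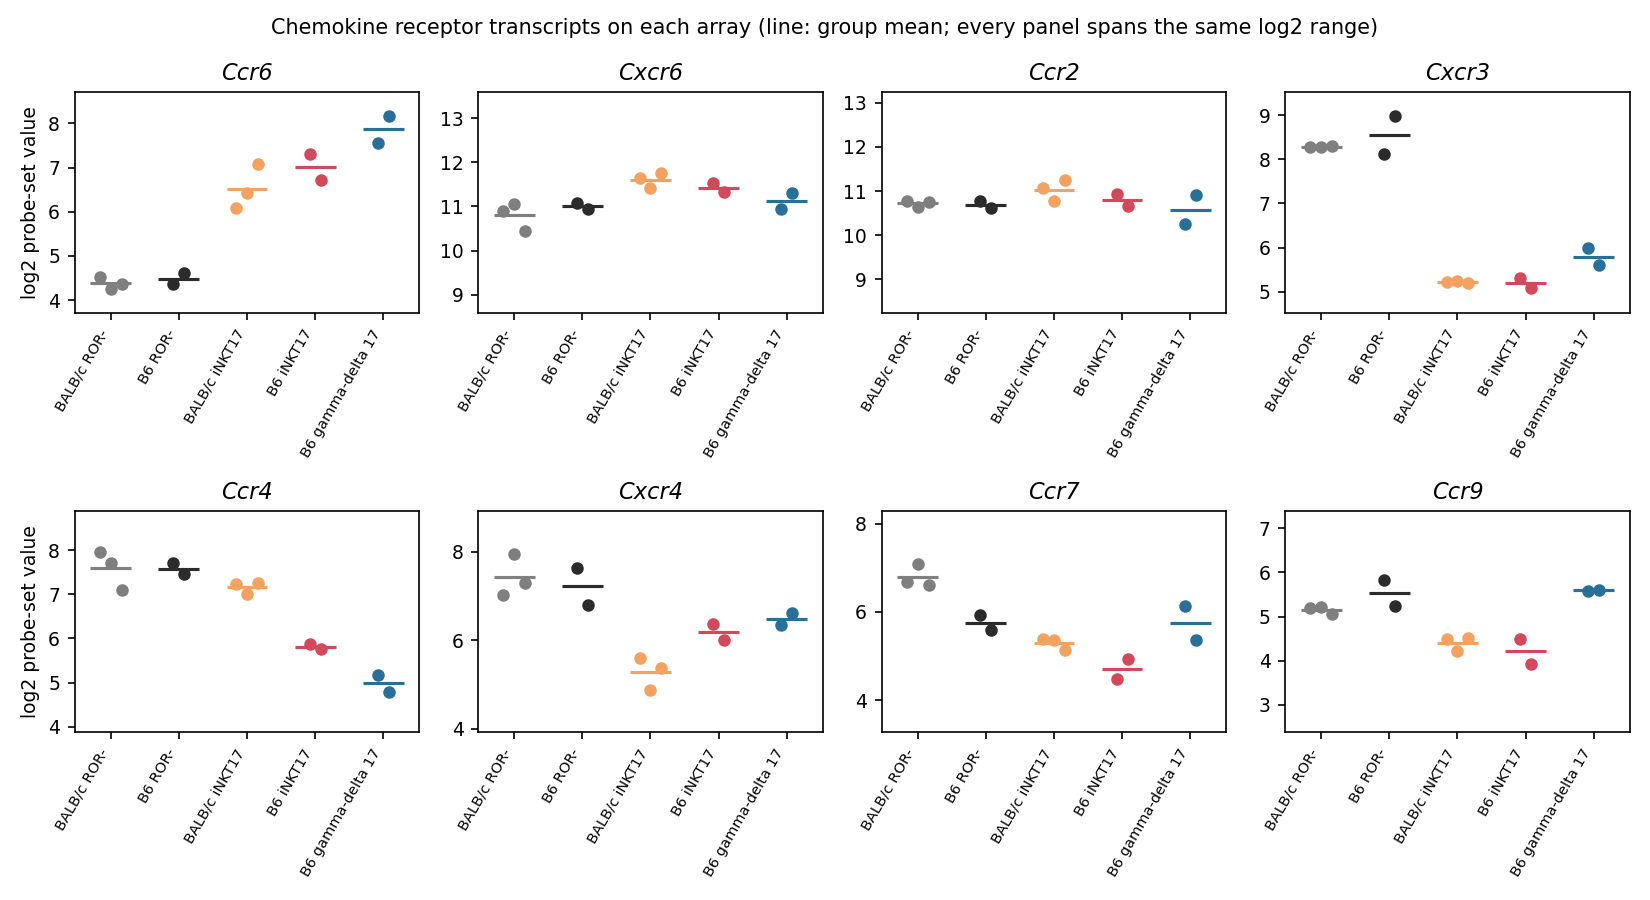
Deposited log2 value of each receptor (vertical axis) on each of the 12 arrays, in the 5 groups (horizontal axis). Points are arrays, lines are group means, and every panel spans an equal log2 range around its own centre. Ccr6 is high in the 3 type 17 groups, Cxcr3 is high in both ROR- groups, and Ccr2 is nearly level.

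Ccr6, the receptor for CCL20 on interleukin 17-producing cells, was the receptor that rose most. ROR- cells read 4.52, 4.26 and 4.37 in BALB/c and 4.35 and 4.61 in B6. The iNKT17 cells read 6.08, 6.41 and 7.08 in BALB/c and 7.32 and 6.71 in B6, and the gamma-delta 17 cells 7.56 and 8.17. Every type 17 array lay above every ROR- array. BALB/c ROR- replicate 2, the array with more Il23r, gave the lowest Ccr6 value of all. In the mean of both strains Ccr6 was higher in iNKT17 cells by 2.34 ± 0.20 (log2 difference ± SE, 5 arrays against 5), a 5.05-fold change (limma, adjusted p = 9.55e-06). The ROR- values lay near the medians of the arrays, 4.10 to 4.30, and no measured background was at hand, so the size of this fold and of the other Ccr6 folds is uncertain. The rise was 2.14 ± 0.25 in BALB/c (limma, adjusted p = 2.41e-04) and 2.53 ± 0.31 in B6 (limma, adjusted p = 3.55e-04).

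Cxcr6 and Ccr2 had the narrowest ranges. Cxcr6, the receptor for CXCL16 and a mark of iNKT cells in the liver, read 10.91, 11.05 and 10.44 in BALB/c ROR- cells and 11.65, 11.42 and 11.75 in BALB/c iNKT17 cells. In B6 it read 11.08 and 10.95 in ROR- cells, 11.52 and 11.32 in iNKT17 cells, and 10.95 and 11.32 in gamma-delta 17 cells. The iNKT17 arrays were the highest in each strain and did not overlap the ROR- arrays. The difference was 0.61 ± 0.13 in the mean of both strains (limma, adjusted p = 0.0104) and 0.81 ± 0.17 in BALB/c (limma, adjusted p = 0.0128); in B6 it was 0.41 ± 0.21 and did not pass (limma, adjusted p = 0.385). Single arrays decided both calls. Leaving out B6 iNKT17 replicate 1 gave a mean difference of 0.56 (limma, adjusted p = 0.0512), and leaving out BALB/c iNKT17 replicate 3 gave a BALB/c difference of 0.74 (limma, adjusted p = 0.0646). Ccr2, the receptor for CCL2, ranged from 10.25 to 11.24 over all 12 arrays. Its difference in the mean of both strains was 0.20, with a 95% confidence interval from -0.10 to 0.51 (limma, adjusted p = 0.435).

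Cxcr3, the receptor for the interferon-induced chemokines CXCL9 and CXCL10 and typical of type 1 cells, fell most. ROR- cells read 8.27, 8.28 and 8.30 in BALB/c and 8.12 and 8.98 in B6. The iNKT17 cells read 5.22, 5.25 and 5.21 in BALB/c and 5.31 and 5.07 in B6, and the gamma-delta 17 cells 5.98 and 5.60. The ROR- arrays were high and the type 17 arrays low, with a gap between the lowest of the former and the highest of the latter. Cxcr3 fell by 3.21 ± 0.15 on the log2 scale in the mean of both strains, a 9.25-fold lower level (limma, adjusted p = 1.07e-07). It fell by 3.06 ± 0.19 in BALB/c (limma, adjusted p = 2.32e-06) and by 3.36 ± 0.23 in B6 (limma, adjusted p = 8.36e-06).

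Cxcr4, the receptor for CXCL12, read 7.02, 7.96 and 7.29 in BALB/c ROR- cells and 5.60, 4.88 and 5.38 in BALB/c iNKT17 cells. In B6 it read 7.64 and 6.81 in ROR- cells, 6.36 and 5.999 in iNKT17 cells, and 6.34 and 6.62 in gamma-delta 17 cells. The iNKT17 arrays did not overlap the ROR- arrays of their strain, while the B6 iNKT17 and gamma-delta 17 arrays overlapped. Cxcr4 fell by 1.59 ± 0.22 in the mean of both strains (limma, adjusted p = 4.32e-04) and by 2.13 ± 0.28 in BALB/c (limma, adjusted p = 5.40e-04); without BALB/c ROR- replicate 2, which gave the highest Cxcr4 value, the BALB/c difference was -1.86 (limma, adjusted p = 0.00186). The B6 difference was -1.04 ± 0.34 and did not pass (limma, adjusted p = 0.120). It was -0.63 without B6 ROR- replicate 1 and -1.46 without B6 ROR- replicate 2, and passed in neither case (limma, adjusted p = 0.666 and 0.0638).

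Ccr7, the lymph node homing receptor for CCL19 and CCL21, read 6.67, 7.08 and 6.61 in BALB/c ROR- cells and 5.38, 5.37 and 5.13 in BALB/c iNKT17 cells. In B6 it read 5.93 and 5.58 in ROR- cells, 4.48 and 4.93 in iNKT17 cells, and 6.14 and 5.35 in gamma-delta 17 cells. The BALB/c ROR- arrays were higher than all others. Ccr7 fell by 1.27 ± 0.17 in the mean of both strains (limma, adjusted p = 3.12e-04) and by 1.49 ± 0.21 in BALB/c (limma, adjusted p = 0.0010034). In B6 it fell by 1.05 ± 0.26 (limma, adjusted p = 0.0353), but it no longer passed when BALB/c iNKT17 replicate 1 or any of the 4 arrays compared was left out, with differences from -1.27 to -0.82 and adjusted p from limma up to 0.275, and under quantile normalization (-1.004, adjusted p = 0.0636).

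Ccr9, the receptor for CCL25 of thymus and small intestine, read 5.20, 5.23 and 5.05 in BALB/c ROR- cells and 4.50, 4.21 and 4.52 in BALB/c iNKT17 cells. In B6 it read 5.83 and 5.25 in ROR- cells, 4.50 and 3.93 in iNKT17 cells, and 5.59 and 5.60 in gamma-delta 17 cells. All 5 iNKT17 arrays lay below the other 7. Their values lay near the medians of the arrays, 4.10 to 4.30, so the size of the Ccr9 differences is uncertain. Ccr9 fell by 1.04 ± 0.14 in the mean of both strains (limma, adjusted p = 3.66e-04) and by 1.33 ± 0.22 in B6 (limma, adjusted p = 0.00314). In BALB/c it fell by 0.75 ± 0.18 (limma, adjusted p = 0.0247), but it no longer passed when ROR- replicate 1 or 2 of this strain, or any of its 3 iNKT17 arrays, was left out, with adjusted p from limma up to 0.0976 and differences from -0.80 to -0.65.

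Ccr4, the receptor for CCL17 and CCL22 on type 2 and regulatory T cells, read higher in BALB/c than in B6 iNKT17 cells. That difference passed, but the call was lost when any of 3 arrays was left out. The interaction did not pass (limma, adjusted p = 0.319). ROR- cells read 7.96, 7.70 and 7.10 in BALB/c and 7.70 and 7.46 in B6. The iNKT17 cells read 7.23, 7.01 and 7.25 in BALB/c but 5.86 and 5.75 in B6, and the gamma-delta 17 cells 5.18 and 4.79. BALB/c iNKT17 arrays thus overlapped the ROR- arrays, and the B6 type 17 arrays lay below them. Ccr4 fell by 1.77 ± 0.24 in B6 (limma, adjusted p = 8.59e-04). In BALB/c the difference was -0.42 ± 0.20 (limma, adjusted p = 0.298); without BALB/c ROR- replicate 3 it was -0.67 and passed (limma, adjusted p = 0.0331). The mean of both strains, -1.10 ± 0.16 (limma, adjusted p = 5.43e-04), lies between these strain values.

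Within the strains, 6 of the 8 receptors passed in BALB/c (2 higher and 4 lower), where 6.97% of all tested genes did (4.06% higher and 2.91% lower). In B6, 5 of the 8 passed (1 higher and 4 lower), where 5.99% did (2.83% higher and 3.16% lower). The count in BALB/c was 5 when ROR- replicate 2 was left out. Whether the step from ROR- to iNKT17 cells differed between strains was tested directly as an interaction. By limma none of the 8 receptors passed adjustment and 2 had an unadjusted p under 0.05, where 0.084% of all tested genes, 14 genes, passed. Those 2 were Ccr4, whose difference was 1.35 ± 0.31 less negative in BALB/c (limma, adjusted p = 0.319), and Cxcr4, at -1.09 ± 0.44 (limma, adjusted p = 0.999), which was -1.51 without B6 ROR- replicate 1 and -0.67 without B6 ROR- replicate 2.

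**Figure D2:**
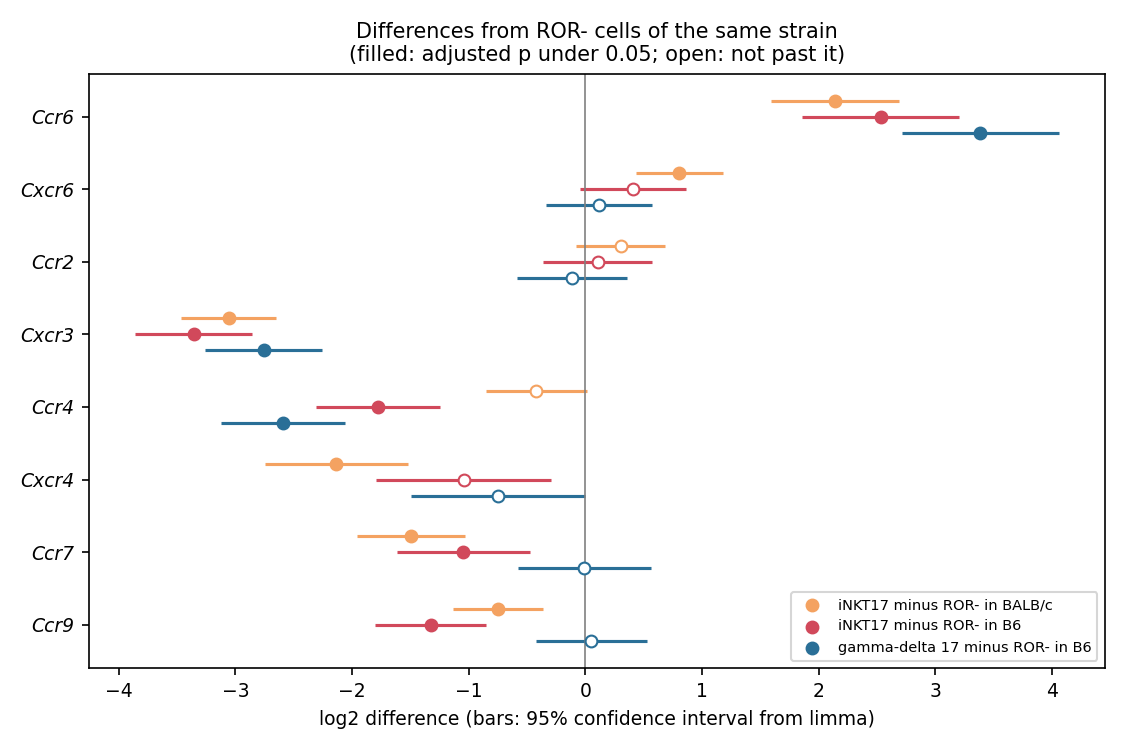
Log2 difference of each receptor from ROR- cells of the same strain (horizontal axis) for BALB/c iNKT17, B6 iNKT17 and B6 gamma-delta 17 cells, with 95% confidence intervals from limma; filled points have an adjusted p under 0.05. The 2 B6 comparisons share the B6 ROR- arrays. Ccr6 lies to the right and Cxcr3 to the left in all 3, while for gamma-delta 17 cells Ccr9 (0.05) and Ccr7 (-0.01) lie near 0.

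The strains were then compared within each cell type. In iNKT17 cells, Ccr4 was higher in BALB/c than in B6 by 1.36 ± 0.22, a 2.56-fold difference (limma, adjusted p = 0.0101), and was the 1 receptor of 8 that passed, where 1.48% of all tested genes did (0.672% higher). All 3 BALB/c arrays lay above both B6 arrays. The adjusted p from limma was 0.0651 with B6 iNKT17 replicate 1 left out (difference 1.41), 0.134 with B6 iNKT17 replicate 2 left out (1.299) and 0.0505 with the third BALB/c iNKT17 array left out (1.31), so the call was lost each time. Cxcr4 differed by -0.89 ± 0.31 (limma, adjusted p = 0.239) and Ccr7 by 0.59 ± 0.24 (limma, adjusted p = 0.318), and neither passed. In ROR- cells none of the 8 receptors passed by limma and 1 had an unadjusted p under 0.05, where 1.22% of all tested genes passed. That receptor was Ccr7, higher in all 3 BALB/c arrays than in both B6 arrays, by 1.03 ± 0.24 (limma, adjusted p = 0.0683). Without B6 gamma-delta 17 replicate 1 or replicate 2, which enter only through the shared spread, Ccr7 passed (limma, adjusted p = 0.0304 and 0.0305). For Ccr4 in ROR- cells the difference was 0.00, with a 95% confidence interval from -0.48 to 0.49.

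Gamma-delta 17 cells of B6 mice differed from ROR- cells in 3 of the 8 receptors (1 higher and 2 lower), where 6.02% of all tested genes passed (2.61% higher and 3.41% lower). Ccr6 was higher by 3.38 ± 0.31, a 10.4-fold change (limma, adjusted p = 4.72e-05). Cxcr3 fell by 2.76 ± 0.23 (limma, adjusted p = 2.47e-05) and Ccr4 by 2.60 ± 0.24 (limma, adjusted p = 6.09e-05). Replicate 1 was the array with neutrophil transcripts and more Cd8a, Cd8b1 and Dntt. Without it the differences were 3.69 for Ccr6, -2.95 for Cxcr3 and -2.79 for Ccr4. For Ccr9 the difference was 0.05, with a 95% confidence interval from -0.43 to 0.53, and for Ccr7 it was -0.01, with an interval from -0.58 to 0.56. Without replicate 1 the Ccr7 difference was -0.40 (limma, adjusted p = 0.594), and without replicate 2 it was 0.38 (adjusted p = 0.527). Centring the arrays on their medians moved the split of all genes called from 43.4% higher to 32.3% higher in this comparison.

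Set directly against B6 iNKT17 cells, gamma-delta 17 cells differed in 1 of the 8 receptors, where 0.168% of all tested genes passed (0.108% lower); 5 receptors had an unadjusted p under 0.05. This comparison shares the B6 iNKT17 arrays with the comparison to ROR- cells. Ccr9 was lower in iNKT17 cells, with a log2 difference of -1.38 ± 0.22 (limma, adjusted p = 0.0322). Its gamma-delta 17 values were 5.59 and 5.60. Whether the neutrophil and thymocyte marker transcripts of gamma-delta 17 replicate 1 had a part in this difference was not tested. The call was lost when any of 7 arrays was left out: BALB/c ROR- replicates 1 and 3, BALB/c iNKT17 replicates 1 and 3, B6 iNKT17 replicate 2 and either gamma-delta 17 array. The differences were then from -1.38 to -1.10, with adjusted p from limma up to 0.411. It was also lost when only the 4 arrays compared were fitted (adjusted p = 0.220). The other 4 receptors with an unadjusted p under 0.05 did not pass adjustment. Ccr7 differed by -1.04 (limma, adjusted p = 0.217) and Ccr4 by 0.82 (limma, adjusted p = 0.345). Ccr6 differed by -0.85 (limma, adjusted p = 0.488) and Cxcr3 by -0.60 (limma, adjusted p = 0.510). Without gamma-delta 17 replicate 1 the Ccr7 difference was -0.65. The arrays of these 4 did not overlap, but nor did those of Cxcr6, whose unadjusted p was 0.188 (limma).

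**Figure D3:**
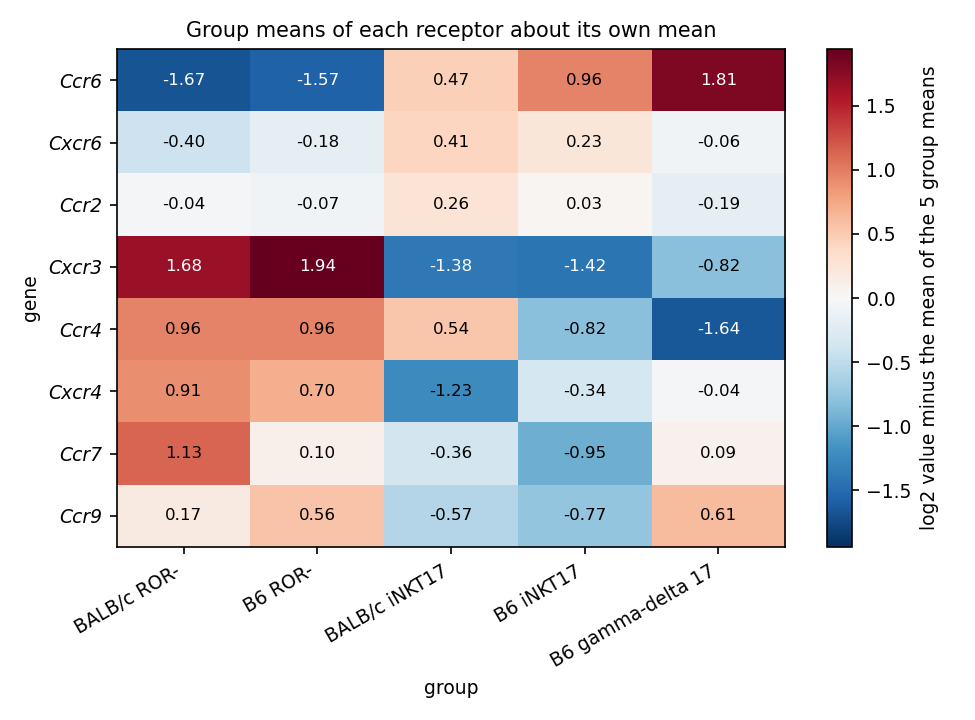
Group mean of each receptor (rows) in each group (columns) minus that receptor's own mean over the 5 groups, in log2 units, with red above and blue below. Ccr6 runs from -1.67 in BALB/c ROR- cells to 1.81 in gamma-delta 17 cells, and Cxcr3 from 1.94 in B6 ROR- cells to -1.42 in B6 iNKT17 cells.

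The 5 groups were put in order of level for each receptor. For Ccr6 the order ran from gamma-delta 17 (7.86 ± 0.43, SD, n = 2) through B6 iNKT17 (7.01 ± 0.43, n = 2) and BALB/c iNKT17 (6.52 ± 0.51, n = 3) to B6 ROR- (4.48 ± 0.18, n = 2) and BALB/c ROR- (4.38 ± 0.13, n = 3). Among these neighbours, the step from BALB/c iNKT17 to B6 ROR- was the 1 that passed (2.04 ± 0.28, limma, adjusted p = 6.85e-04). For Cxcr3 it was the step from BALB/c ROR- (8.28 ± 0.02, n = 3) down to gamma-delta 17 (5.79 ± 0.27, n = 2), a difference of 2.49 ± 0.21 (limma, adjusted p = 2.39e-05). For Ccr4 the step lay within the type 17 cells, between BALB/c iNKT17 (7.16 ± 0.13, n = 3) and B6 iNKT17 (5.81 ± 0.08, n = 2), and for Ccr9 between BALB/c ROR- (5.16 ± 0.10, n = 3) and BALB/c iNKT17 (4.41 ± 0.17, n = 3). For Ccr2, Ccr7, Cxcr4 and Cxcr6 no neighbouring pair passed. Their group means still spanned 0.45, 2.08, 2.13 and 0.81 log2 units.

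The rest of the chemokine receptor family was read as a list. Of 12 genes that were tested (Ccr1 and Ccr3 were too dim), none was higher and 2 were lower in iNKT17 cells in the mean of both strains (6.49% and 5.81% of all tested genes), with a median of -0.06; 4 had an unadjusted p under 0.05 by limma. Ccrl2, an atypical receptor that binds chemerin, fell by 1.31 ± 0.23 (limma, adjusted p = 0.00253). Its values were 5.64, 6.22 and 5.05 in BALB/c ROR- cells against 5.17, 4.46 and 4.20 in iNKT17 cells, with 1 overlap, and 5.79 and 6.18 against 4.21 and 4.57 in B6. Ccr10, a skin and mucosal homing receptor, fell by 1.25 ± 0.29 (limma, adjusted p = 0.0131), from 7.45, 7.83 and 6.93 to 6.63, 5.30 and 5.99 in BALB/c and from 6.20 and 7.06 to 5.52 and 5.58 in B6. Both genes were highest among BALB/c ROR- cells on replicate 2; without it Ccrl2 fell by 1.16 (limma, adjusted p = 0.00357) and Ccr10 by 1.14 (limma, adjusted p = 0.0300).

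**Figure D4:**
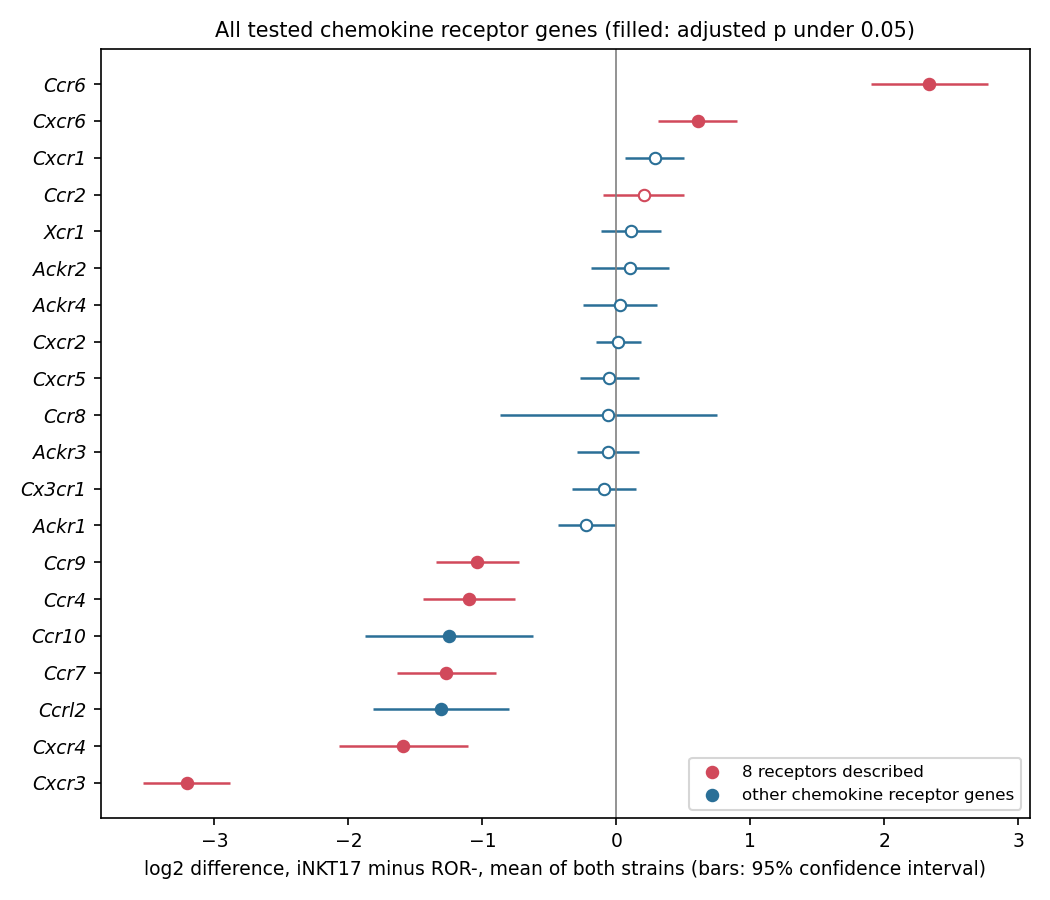
Log2 difference, iNKT17 minus ROR- in the mean of both strains (horizontal axis), for the 8 receptors described (red) and 12 other chemokine receptor genes (blue), with 95% confidence intervals from limma; filled points have an adjusted p under 0.05. Ccr6 and Cxcr6 lie to the right, and Ccr10, Ccrl2 and 5 of the 8 to the left.

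None of 11 tested genes for the ligands of these receptors passed in any of the 8 comparisons by limma, and 0 to 3 of them per comparison had an unadjusted p under 0.05. No CCR7 ligand was among the genes tested, because Ccl19, Ccl21a and Ccl21b had no probe set with that symbol alone. Ccl12 was too dim. Cxcl10, a ligand of CXCR3 named after its values were seen, differed by 2.03 ± 0.74 between iNKT17 and ROR- cells of B6 (limma, adjusted p = 0.173) and by -2.14 ± 0.67 between BALB/c and B6 iNKT17 cells (limma, adjusted p = 0.183). Among signalling genes downstream of the receptors, 3 of 21 rose and 2 fell in the mean of both strains, beside the 6.49% and 5.81% of all tested genes, with a median of 0.12. Among those that rose were the G protein subunits Gnb1 (0.53) and Gng2 (0.45). Rasgrp2, an exchange factor for the integrin activator Rap1, fell by 1.45 ± 0.14 (limma, adjusted p = 2.23e-05), and Pik3r5, a subunit of PI3K gamma, fell by 0.68 ± 0.10 (limma, adjusted p = 7.77e-04). Of 10 genes that end receptor signals, 2 rose and 2 fell, beside the same shares of all genes, with a median of 0.06. The beta-arrestins Arrb1 (1.02 ± 0.13, limma, adjusted p = 1.90e-04) and Arrb2 (0.40) rose. Rgs2 fell by 1.68 and Rgs3 by 1.18; they encode RGS proteins, which speed the switching off of G proteins. In gamma-delta 17 cells against the B6 ROR- arrays, which both comparisons use, 2 of the 10 rose and 2 fell (2.61% and 3.41% of all genes), and 1 rose and 1 fell without gamma-delta 17 replicate 1.

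Of 7 genes for transcription factors of T cell subsets, none rose and 4 fell in iNKT17 cells in the mean of both strains, where 6.49% of all tested genes rose and 5.81% fell; the median was -0.59. Tbx21, encoding T-bet, an activator of Cxcr3, fell by 2.78 ± 0.17 (limma, adjusted p = 8.16e-07). It read 6.89 to 8.04 on the 5 ROR- arrays and 4.77 to 5.12 on the 7 type 17 arrays. Klf2, a regulator of lymphocyte egress, fell by 1.75 ± 0.40 (limma, adjusted p = 0.0131); it read 8.77 on BALB/c ROR- replicate 2 and 6.90 to 7.13 on the other ROR- arrays, and without that replicate it fell by 1.45 (limma, adjusted p = 0.0120). Eomes fell by 0.94, to a mean of 3.01 that lay below the dim level, so the size of that change is uncertain, and Gata3 fell by 0.59. Zbtb16, encoding the innate T cell factor PLZF, was higher in BALB/c than in B6 iNKT17 cells by 0.98 ± 0.18 (limma, adjusted p = 0.0190), the comparison in which Ccr4 was also higher. Rora (0.14, limma, adjusted p = 0.422) and Foxo1 (0.20, adjusted p = 0.217) did not pass in the mean of both strains.

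Genes with the most similar pattern over the 12 arrays were found for the 5 receptors whose group means spanned at least 2 log2 units, as the smallest root mean square difference after centring each gene. The closest were Tdrd9 (0.27), Kcnk1 (0.32) and Npl (0.34) for Ccr6, whose own root mean square about its mean was 1.39. For Cxcr3 (1.51) they were Mctp2 (0.28), Ctsw (0.31) and Sytl2 (0.31). Tdrd9 had group means of 7.13 in gamma-delta 17 cells, 5.84 in the iNKT17 cells of each strain, 3.77 in BALB/c ROR- cells and 3.70 in B6 ROR- cells. For Ccr4 (1.02) the closest were Lrmp (0.26), Ephx1 (0.35) and Malt1 (0.36). Lrmp had means of 7.72 in BALB/c and 6.51 in B6 iNKT17 cells. For Ccr7 (0.74) they were Fcgr3 (0.28), Bach2 (0.30) and Prkcq (0.33), and for Cxcr4 (0.89) Nod1 (0.36), Bmp7 (0.42) and Mgst2 (0.43).

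Ccr9, Cxcr6 and Ccr2 lie near each other on mouse chromosome 9, and in the mean of both strains the first fell, the second rose and the third did not pass. Of the genes between or beside them in the RefSeq order, 3 that are not among the 8 receptors were tested: Lztfl1, Fyco1 and Xcr1. Lztfl1, the neighbour of Ccr9, fell by 0.65 ± 0.16 in the mean of both strains (limma, adjusted p = 0.0223), where 5.81% of all tested genes were lower. It did not pass in BALB/c (-0.42, limma, adjusted p = 0.326) or in B6 (-0.88, limma, adjusted p = 0.0718). Fyco1 and Xcr1 did not pass in any comparison of groups.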

How the data were processed

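Total RNA was extracted with a column kit and prepared as biotinylated cRNA for Affymetrix whole-transcript arrays, per the labels' protocols. The authors deposited 1 table of log2 values for 41345 probe sets, made with the R package oligo per the submitters' processing notes; its version and the summarisation are not given in these sources, and log2 was inferred from the values. The medians of the arrays lay between 4.10 and 4.30, and the values were used as deposited. Of the probe sets, 23521 had 1 gene symbol, 1814 several and 16010 were unnamed here; the brightest probe set stood for each of 22180 genes. Testing required that 2 or more arrays exceeded the 30th percentile of named values (3.45, not a measured background), which left 16667.

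A model of 5 group means was fitted to 12 arrays with limma 3.58.1 (eBayes without trend) in R 4.3.3, with Benjamini-Hochberg adjustment over 16667 genes and a threshold of 0.05. The pipeline was tested on simulated data. All 8 receptors and the regulator and identity genes were named whatever their values, up to 4 genes past the threshold in each other list, and 3 most similar genes for each receptor spanning at least 2 log2 units. The receptors and lists were chosen with earlier results of these data known. The number of arrays limits the precision. Alternatives were median centring, quantile normalization, no or a stricter filter, the mean of probe sets, trend with robust variances, array weights, a replicate block, the compared groups alone, and each array left out.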

Additional observations from a re-analysis of the deposited data

How the results depend on the processing

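Of the 23 receptor differences past the threshold, 17 stayed past it in the same direction under every alternative run, each array left out included. Ccr6 and Cxcr3 kept their calls in all 4 comparisons with ROR- cells. Whether replicate numbers pair the samples could not be told. Same-numbered arrays deviated together with a mean correlation of 0.019 over 21 pairs (-0.46 to 0.47), against -0.011 over 36 other pairs. In groups of 2 arrays the deviations mirror each other, which partly fixes these means. Same-numbered B6 ROR- and B6 iNKT17 arrays correlated at 0.47. For BALB/c ROR- and iNKT17 arrays of the same number the values were -0.46, -0.34 and 0.14. With the replicate block, Ccr7 in B6 (-1.05, limma adjusted p = 0.0526) lost its call, Ccr2 between strains in ROR- cells turned to -0.025, and 6 genes passed for the interaction instead of 14. The interaction count was 9 with median centring and 9 with quantile normalization. The strain count in iNKT17 cells, 247, was 549 with array weights and 159 with the compared groups alone; that in ROR- cells, 203, was 83. For iNKT17 against gamma-delta 17 cells, 28 genes and 1 receptor became 2 genes and 0 receptors with the compared groups alone, and median centring moved the median of all genes to 0.12. Median centring also turned 4 differences that had not passed: Cxcr3 between strains in iNKT17 cells (-0.023, and -0.014 with quantile normalization), Ccr2 (-0.043) and Ccr4 (-0.074) between strains in ROR- cells, and Ccr9 in gamma-delta 17 against ROR- cells (-0.042). The cause was not tested.

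Leaving out each array in turn, the genes past the threshold for iNKT17 against ROR- cells numbered 1336 to 2050 in the mean of both strains, 742 to 1151 in BALB/c and 486 to 1065 in B6. They numbered 0 to 15 for the interaction, 77 to 531 between strains in iNKT17 cells, 62 to 259 between strains in ROR- cells, 5 to 58 for iNKT17 against gamma-delta 17 cells, and 524 to 1153 for gamma-delta 17 against ROR- cells. The receptors past it numbered 0 to 1 in each strain comparison and for iNKT17 against gamma-delta 17 cells, and 4 to 7 in BALB/c. Differences that had not passed and changed sign are given by their ranges. Between strains in ROR- cells these were Ccr2 (-0.049 to 0.12), Ccr4 (-0.19 to 0.25), Ccr6 (-0.22 to 0.029), Cxcr3 (-0.69 to 0.16) and Cxcr4 (-0.22 to 0.62). In gamma-delta 17 against ROR- cells they were Ccr2 (-0.44 to 0.21), Ccr7 (-0.40 to 0.38), Ccr9 (-0.24 to 0.34) and Cxcr6 (-0.069 to 0.30). Between strains in iNKT17 cells they were Ccr9 (-0.087 to 0.47) and Cxcr3 (-0.080 to 0.15). The rest were Ccr2 in iNKT17 against ROR- cells of B6 (-0.027 to 0.24) and against gamma-delta 17 cells (-0.11 to 0.55), and Cxcr3 in the interaction (-0.13 to 0.73). A group left with 1 array was assumed to vary like the others. With 2 or 3 arrays in a group, small differences could not be told from the spread between arrays.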
